A study of Mus musculus with 51 samples.

Results

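The Rab family was examined across every RNA library of the series. It comprised the protein-coding mouse genes whose symbol is Rab followed by a number and at most 1 letter and 1 further digit. The rule took 59 of 20831 protein-coding genes, out of 50600 genes in the count tables, and left out 5 Rab pseudogenes. By known role, 13 members belong to granule secretion and exocytosis, 15 to early and recycling endosomes, 12 to late endosomes, phagosomes and lysosomes, 15 to the endoplasmic reticulum and Golgi, and 4 to cilia and other functions. The members were chosen by name and not by any measured value.

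Rab proteins are small GTPases that switch between a GDP-bound form held in the cytosol and a GTP-bound form anchored in a membrane by lipid tails. Exchange factors turn them on, GTPase-activating proteins turn them off, and in the active form they recruit effectors that move, tether and fuse vesicles. In neutrophils they serve the release of granules at the cell surface and the maturation of phagosomes, the compartments in which ingested microbes are killed.

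The study asked which transcription factors shape neutrophils at a site of inflammation. In mice carrying CX3CR1GFP and Ly6GCre-tdTomato, 100 µg of zymosan, a yeast cell wall particle that phagocytes ingest, was given into an air pouch on day 6. Ly6G+ neutrophils were sorted 4 h later from exudate (5 RNA libraries), blood (5), bone marrow (3) and pouch membrane (2), all from zymosan-treated mice, and 8 ATAC-seq libraries, 2 per tissue from 75000 cells each, recorded open chromatin. A second system used ER-Hoxb8 cells, progenitors held immature by an estradiol-dependent Hoxb8, which matured for 5 days in G-CSF and stem cell factor and then spent 2 h with zymosan (50 µg/ml) or with DMSO alone. Set 1 held wild-type (WT), CEBPB-/- and JUNB-/- cells and set 2 held WT, IRF5-/- and RELB-/- cells, each with DMSO and with zymosan. A later table held RUNX1-/- and KLF6-/- cells with DMSO and repeated the libraries of set 2. From it, RUNX1-/- and KLF6-/- were read beside the WT DMSO libraries of set 2, and below the later table means only these libraries. Every ER-Hoxb8 group had 2 libraries, and the labels do not say whether these came from separate cultures or whether a line is 1 clone. The p-values below therefore measure the spread between these libraries, which may be technical.

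The stretches around the gene start are shown for 5 members on which the results turn. Rab20, Rab7 and Rab8b had the largest zymosan rises among well-expressed members, Rab3a had its start inside an open site that was reduced in the air pouch, and Rab9 was the one of these 5 with a motif match. Each runs 5′ to 3′ along the gene's own strand from 250 bases before the start to 50 after it (RefSeq, GRCm38.p6), and capitals mark a match to the kappa B motif. The windows lie at chr8:11478591-11478890 on the minus strand (Rab20), chr6:88045221-88045520 minus (Rab7), chr9:66919656-66919955 minus (Rab8b), chr8:70754453-70754752 plus (Rab3a) and chrX:166479818-166480117 minus (Rab9).
Rab20: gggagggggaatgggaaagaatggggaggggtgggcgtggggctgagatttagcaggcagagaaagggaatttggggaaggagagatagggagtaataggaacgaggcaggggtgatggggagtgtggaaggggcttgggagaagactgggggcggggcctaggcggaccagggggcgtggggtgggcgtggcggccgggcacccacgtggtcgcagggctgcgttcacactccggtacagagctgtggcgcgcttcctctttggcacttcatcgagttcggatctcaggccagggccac
Rab7: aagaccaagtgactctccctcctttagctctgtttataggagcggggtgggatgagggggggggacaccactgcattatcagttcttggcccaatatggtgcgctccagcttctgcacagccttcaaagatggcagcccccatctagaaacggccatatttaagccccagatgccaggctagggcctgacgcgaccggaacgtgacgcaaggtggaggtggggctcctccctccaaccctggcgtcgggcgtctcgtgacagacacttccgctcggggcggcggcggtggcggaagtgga
Rab8b: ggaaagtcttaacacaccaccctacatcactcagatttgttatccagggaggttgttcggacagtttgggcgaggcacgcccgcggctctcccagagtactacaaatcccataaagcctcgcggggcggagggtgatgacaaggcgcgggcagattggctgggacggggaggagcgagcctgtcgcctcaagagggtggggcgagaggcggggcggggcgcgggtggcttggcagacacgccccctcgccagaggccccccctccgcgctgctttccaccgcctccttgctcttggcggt
Rab3a: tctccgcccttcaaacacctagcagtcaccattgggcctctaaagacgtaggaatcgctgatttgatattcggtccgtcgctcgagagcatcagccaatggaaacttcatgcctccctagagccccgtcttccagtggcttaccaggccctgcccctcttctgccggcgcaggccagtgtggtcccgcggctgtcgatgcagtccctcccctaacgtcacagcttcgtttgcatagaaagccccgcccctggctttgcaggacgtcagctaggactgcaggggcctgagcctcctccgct
Rab9: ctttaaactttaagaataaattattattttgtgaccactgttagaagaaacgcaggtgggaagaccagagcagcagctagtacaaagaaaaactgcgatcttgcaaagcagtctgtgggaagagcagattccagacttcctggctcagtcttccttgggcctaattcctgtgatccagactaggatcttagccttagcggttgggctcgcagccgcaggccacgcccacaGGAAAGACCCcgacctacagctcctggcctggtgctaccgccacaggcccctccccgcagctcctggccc

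RefSeq start windows were found for 48 of the 59 members, with a median GC content of 61.1%, against 52.7% over all windows. Of 4 motifs searched on both strands, the kappa B pattern (GGG and TTCC with any 3 bases between them) was present in 4 of 48 members (8.33%; Rab11a, Rab15, Rab28 and Rab9) and in 6.31% of all 27025 genes. The AP-1 pattern TGANTCA was found in 3 members (6.25% against 8.97%), the C/EBP pattern TTGCNNAA in 4 (8.33% against 12.2%) and the interferon response element pattern (GAAA and GAAA with any 2 bases between them) in 1 (2.08% against 3.99%). None of the 4 patterns was found in the windows of Rab20, Rab7, Rab8b or Rab3a. A match describes the letters in the window and says nothing of binding.

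Tissue libraries held 9.24 to 19.1 M counted read pairs. Set 1 libraries held 19.4 to 32.4 M, set 2 libraries 24.0 to 34.3 M, and those of the later table held 26.9 to 30.1 M. Replicate ER-Hoxb8 libraries were close (Spearman rho across genes 0.994 to 0.998), whereas the tissue libraries of 1 group were not (0.0298 to 0.609). All 12 neutrophil markers checked were detected in every ER-Hoxb8 group. The count of the targeted gene, which may still be transcribed after an edit whose place is not stated, was lower in 3 lines with DMSO: Junb at 486 and 511 CPM (counts scaled to library size) in JUNB-/- against 851 and 948 in WT, Relb at 68.3 and 67.5 against 168 and 172, and Irf5 at 81.0 and 81.8 against 95.7 and 101. Cebpb was at 537 and 510 CPM in CEBPB-/- against 479 and 536, and 2 genes were higher in their own line, Runx1 at 156 and 152 against 59.3 and 61.5 and Klf6 at 851 and 852 against 622 and 638. Irf5 was lower still in RELB-/- (38.4 and 39.1), and Relb was at 72.2 and 74.9 in IRF5-/-, close to its level in RELB-/-. The counts therefore do not check the label of any of the 6 lines, which are named below as they are labelled.

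Of the 59 members, 44 passed the filter on low counts in set 1, 42 in set 2, 42 in the later table and 38 in the tissues. The 15 left out of set 1 had at most 0.625 CPM in any library and included Rab27b, Rab3b and Rab3c of the secretory group, and 5 members, named here for that value, had no read there at all (Rab39b, Rab3c, Rab40b, Rab42 and Rab9b). Per kilobase of exon, Rab7 was the most abundant member in every table, at a mean of 856 CPM per kb in set 1, 668 in set 2, 408 in the later table and 700 in the tissues. It was followed by Rab32 (285), Rab8b (213), Rab20 (200) and Rab5c (127 CPM per kb) in set 1. In set 2 the order below Rab7 was Rab32 (334), Rab8b (235), Rab20 (183) and Rab6a (111 CPM per kb). In the later table, read without zymosan libraries, it was Rab32 (245), Rab5c (134), Rab31 (108) and Rab6a (89.9 CPM per kb). Rab7 is the GTPase that drives late endosomes and phagosomes to fuse with lysosomes. In WT cells of set 1 it made up 18.3% and 18.4% of the family's summed level per kilobase with DMSO and 38.6% and 37.8% with zymosan, and in CEBPB-/- cells 13.5% in both DMSO libraries and 46.6% and 46.9% with zymosan.

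The first comparison asked how WT ER-Hoxb8 neutrophils responded to 2 h of zymosan. Among well-expressed members Rab20 and Rab7 of phagosomes and late endosomes rose most, together with Rab8b of the exocytic group, while Rab27a, Rab3d and Rab37, which serve granule release, fell. By edgeR's quasi-likelihood test with Benjamini-Hochberg adjustment, 39 of 44 tested members passed in set 1 (16 higher, 23 lower) and 37 of 42 in set 2 (20 higher, 17 lower). The background was high: 75.6% of all genes tested were called in set 1 (35.7% higher, 39.9% lower) and 68.4% in set 2 (36.3% higher, 32.1% lower). At a change of at least 2-fold, 13 members remained in set 1 (6 higher, 7 lower; 36.6% of all genes) and 18 in set 2 (9 higher, 9 lower; 29.1%). The median log2 change of the tested members was -0.12 in set 1 and 0.13 in set 2, beside -0.07 and 0.05 over all genes tested.

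The direction of small changes depended on scaling. The tests used TMM, which centres on genes in the middle of the distribution, and zymosan libraries differed from DMSO libraries in composition. Scaling to the total count instead moved the median of all genes by -0.70 (log2) in set 1 and -0.87 in set 2, and the called members became 8 higher and 30 lower in set 1 and 10 higher and 30 lower in set 2. Rab22a, Rab7, Rab38, Rab20, Rab8b, Rab1a and Rab10 were higher under both scalings in both sets. Rab9, Rab2a, Rab6a and Rab5c were higher under TMM in both sets and lower under total-count scaling in both. The downward shift of total-count scaling could not turn a fall under TMM into a rise, and every member lower under TMM stayed lower. RLE, another scaling, moved the median of all genes by 0.13 in set 1 and -0.03 in set 2. It gave 48.65% of member calls higher against 41.03% by TMM in set 1, and 52.78% against 54.05% in set 2. Changes below are relative to the bulk of genes, as TMM gives them.

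Rab20, which is found on maturing phagosomes, had 35.5 and 38.0 CPM with DMSO and 341 and 308 with zymosan in WT cells of set 1, and 51.3 and 57.1 against 495 and 492 in set 2. The zymosan libraries lay far above the DMSO libraries in both sets, with no overlap. The log2 change of Rab20 was 3.14 ± 0.04 (SE, n = 2 libraries a group; adjusted p = 5.9e-53, edgeR) in set 1 and 3.19 ± 0.03 (adjusted p = 2.4e-78) in set 2.

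Rab7 stood at 601 and 595 CPM with DMSO and 2502 and 2345 with zymosan in set 1, and at 715 and 719 against 2929 and 2937 in set 2. Again no library of 1 treatment reached the other. Its log2 change was 2.02 ± 0.03 in set 1 and 2.03 ± 0.02 in set 2.

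Other late endosome and lysosome members moved in both directions. Rab32, which serves lysosome-related organelles, rose by 0.72 (log2) in set 1, where it was not called under total-count scaling, and by 1.06 in set 2. Its close relative Rab38 was scarce, with 4 and 3 counts turning to 20 and 42 in set 1 and 13 and 8 turning to 39 and 30 in set 2. Rab12, linked to the degradation of recycling receptors, rose by 1.30 in set 1 and 0.48 in set 2, where it was lower under total-count scaling. Against these, Rab29, a partner of the kinase Lrrk2, fell by 1.35 and 1.21, and Rab7b, which returns cargo from lysosomes to the Golgi, fell by 0.68 and 1.27. Rab24, linked to autophagy, fell by 0.61 in set 1 and was at 0.10 in set 2, where it was lower under total-count scaling. In all, 6 of 10 tested members of the group rose and 3 fell in set 1 (median 0.88), and 7 rose and 2 fell in set 2 (median 0.71). Under total-count scaling the calls of the group were 4 higher and 4 lower in set 1 and 4 and 5 in set 2.

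In the exocytic group, Rab8b, which carries vesicles to the plasma membrane, was at 246 and 235 CPM with DMSO and 1276 and 1285 with zymosan in set 1, and at 320 and 318 against 1611 and 1596 in set 2. The rise of Rab8b was 2.41 ± 0.03 and 2.33 ± 0.02 on the log2 scale, and that of Rab10, another exocytic carrier, was 0.98 and 1.16. Their relative Rab8a did not follow: its log2 change was -0.12 in set 1 and 0.46 in set 2, and the set 2 value was lower under total-count scaling.

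Rab27a, Rab3d and Rab37 of granule release fell in both sets. Rab27a, which docks azurophilic granules in neutrophils, was at 165 and 159 CPM with DMSO and 42.4 and 43.7 with zymosan in set 1, and at 116 and 120 against 57.2 and 54.7 in set 2. It fell by 1.91 ± 0.05 and 1.07 ± 0.04 on the log2 scale, and the treatments did not overlap. Rab3d, a granule protein of exocrine and mast cells, was at 65.1 and 68.5 CPM against 20.5 and 23.7 in set 1 and 79.9 and 80.9 against 27.7 and 27.2 in set 2, a fall of 1.58 and 1.55.

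Rab37, found on mast cell granules, fell by 1.06 and 0.77. Rab3a, best known from synaptic vesicles, was near the detection limit, with 25 and 25 counts turning to 1 and 0 in set 1 and 27 and 28 turning to 0 and 0 in set 2. The set 2 change of Rab3a was at least 9.67-fold lower, taking 3 counts over the group as the floor, which covers counting error only. Rab44, a large Rab with calcium-binding domains, differed between the sets, at -0.43 in set 1 and 0.43 in set 2, and the set 2 value was lower under total-count scaling. In the secretory and exocytic group as a whole, 2 of 9 tested members rose and 6 fell in set 1, and 4 of 8 rose and 4 fell in set 2. Total-count scaling gave 2 higher and 6 lower in both sets.

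Among early and recycling endosome members, Rab5a, which governs early endosome fusion, rose by 0.73 and 1.11, although it was not called under total-count scaling in set 1 (0.03, adjusted p = 0.45, edgeR). Its paralogs Rab5b and Rab5c differed from it: Rab5b fell by 0.73 and 0.40, while Rab5c was 0.08 and 0.40 higher under TMM and lower under total-count scaling. Rab22a, an endosomal relative of the Rab5 proteins, rose by 0.85 and 1.05, and Rab11a, the main recycling endosome Rab, by 0.55 and 0.96, where the set 1 value was lower under total-count scaling. Rab31 and Rab14, which link the Golgi and endosomes, fell by 0.78 and 0.58 in set 1 and by 0.43 and 0.25 in set 2. Rab21 was -0.12 in set 1 and did not pass in set 2 (0.06). The group counted 4 higher and 7 lower of 12 in set 1, and 5 higher and 4 lower of 11 in set 2, or 1 and 9 and then 3 and 8 under total-count scaling.

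In the endoplasmic reticulum and Golgi group, Rab1a, which drives transport out of the endoplasmic reticulum, rose by 1.17 in set 1 and 1.34 in set 2. Its paralog Rab1b fell by 0.65 and 0.47, so that the ratio of the pair changed. Rab33b, which acts in the Golgi and in autophagy, fell by 0.96 and 1.08, and Rab18 of lipid droplets fell by 0.72 and 0.27. In each set 4 of 10 tested members rose and 4 fell, and total-count scaling gave 1 higher and 8 lower. Of the remaining members, Rab40c, which adapts substrates to a ubiquitin ligase, fell by 1.94 and 1.22, and the cilium-associated Rab23, at 0.0454 to 1.20 CPM in the WT libraries of set 2, fell by 3.06 and 3.39.

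The sum of monocyte and macrophage markers moved in the same comparison. Over 7 genes in WT cells of set 1 it was 1128 to 1165 CPM with DMSO and 1453 to 1480 with zymosan. In set 2 it was 958 to 969 against 1153 to 1157. Single genes of the list differed: in set 1 Csf1r fell from 783 and 818 CPM to 690 and 708. Cx3cr1 fell from 22.7 and 23.6 CPM to 7.36 and 7.56 in set 1 and also fell in set 2. In set 2 Csf1r was at 696 and 705 against 689 and 689. The other listed genes rose in both sets. Eosinophil, basophil and mast cell markers went from 1638 to 1642 CPM with DMSO to 1379 to 1443 with zymosan in set 1, and from 3478 to 3545 up to 5517 to 5533 in set 2, where Rab44 also had the higher value with zymosan. Platelet markers went from 39.5 to 40.3 up to 78.3 to 89.0 CPM in set 1, and from 26.4 to 27.3 up to 39.2 to 41.8 in set 2. The part of these cells in the changes of Rab genes was not tested.

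**Figure D1:**
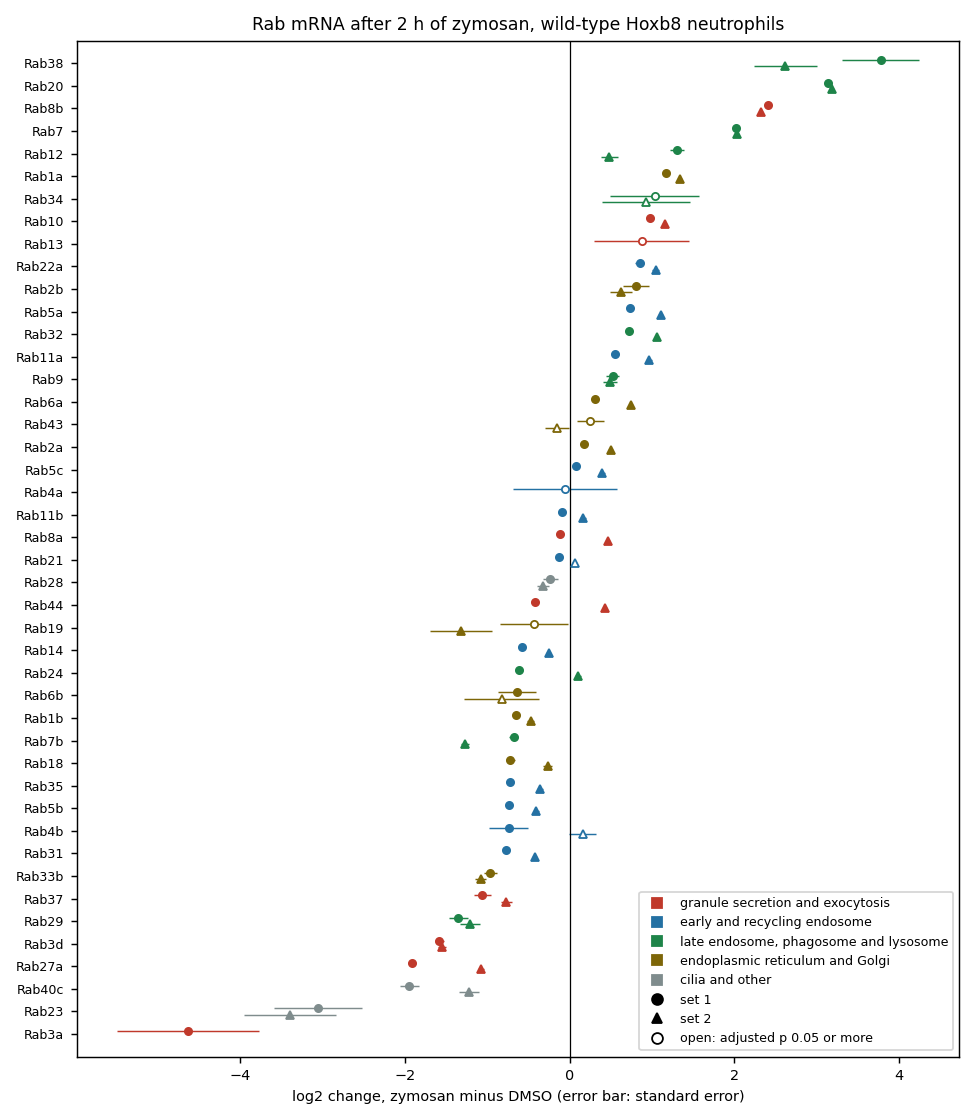
Log2 change with zymosan against DMSO in WT ER-Hoxb8 neutrophils of both sets, 1 row per tested member in the order of the set 1 change and coloured by role, with circles for set 1, triangles for set 2 and bars for the SE (2 libraries a group). Rab20, Rab8b and Rab7 lie between 2.02 and 3.19 in both sets, and Rab27a and Rab3d lie below -1 in both.

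The next comparison asked how the response to zymosan looked in cells lacking a factor. Rab20, Rab7, Rab8b and Rab1a rose at least 2-fold in all 6 lines that received zymosan, the 2 WT sets included, and Rab29, Rab3d and Rab40c fell at least 2-fold in all 6. Of all genes tested in both sets, 10% rose and 6.65% fell in this way. Rab38 (up) and Rab23 (down) also met this rule, but both were near 0 in the other treatment and passed the filter on low counts only through the groups where they were high. Within a line, 35 members were called in CEBPB-/- (18 higher, 17 lower; 73.5% of all genes called), 39 in JUNB-/- (21 and 18; 73.2%), 37 in IRF5-/- (19 and 18; 69.8%) and 36 in RELB-/- (18 and 18; 72.7%). Of all genes, 35.1% were higher and 38.4% lower in CEBPB-/-, and 36.5% and 36.7% in JUNB-/-. The shares were 34.3% and 35.4% in IRF5-/-, and 35.2% and 37.5% in RELB-/-. Under total-count scaling the splits of the members were 10 higher and 29 lower, 14 and 26, 8 and 30, and 10 and 28.

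What differed between lines was the size of the response, tested as the interaction of line and zymosan. CEBPB-/- and JUNB-/- were compared with the same WT libraries of set 1, and IRF5-/- and RELB-/- with the same WT libraries of set 2. Members with a different response numbered 29 in CEBPB-/- (21 higher, 8 lower; 41% of all genes), 26 in JUNB-/- (22 and 4; 43.6%), 23 in IRF5-/- (13 and 10; 33.3%) and 23 in RELB-/- (17 and 6; 31.4%). Of all genes, 24.4% were higher and 16.7% lower in CEBPB-/-, and 28.1% and 15.4% in JUNB-/-. The shares were 16.5% and 16.8% in IRF5-/-, and 16.1% and 15.3% in RELB-/-. For the members, total-count scaling gave 15 and 13 in CEBPB-/- and 7 and 13 in IRF5-/-. RLE scaling gave 74.1% of calls higher in JUNB-/- against 84.6% by TMM, and 85.7% against 73.9% in RELB-/-.

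Rab20 had a larger rise in all 4 lines than in WT. In CEBPB-/- cells it went from 12.2 and 12.2 CPM to 518 and 503, a log2 change of 5.39, which exceeded that of WT by 2.24 ± 0.08 (adjusted p = 4.3e-33, edgeR). In JUNB-/- cells it went from 31.7 and 33.5 to 748 and 762, a change larger by 1.39 ± 0.07.

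In IRF5-/- cells Rab20 went from 13.4 and 13 CPM to 566 and 584 (larger by 2.26 ± 0.06), and in RELB-/- cells from 19.8 and 19.7 to 383 and 369 (larger by 1.07 ± 0.05). All 4 lines started below their WT with DMSO. With zymosan RELB-/- cells remained below WT, at a log2 difference of -0.39, and JUNB-/- cells lay above it, at 1.22. In CEBPB-/- and IRF5-/- cells the zymosan level of Rab20 was higher under TMM, by 0.65 and 0.22, and was not called under total-count scaling (0.07 and 0.04). The sum of monocyte and macrophage markers also grew more with zymosan in these lines than in WT: from 421 to 431 CPM up to 972 to 977 in JUNB-/-, from 592 up to 1252 to 1265 in IRF5-/- and from 687 to 688 up to 1176 to 1197 in RELB-/-, with the CEBPB-/- and WT values given beside Rab7 and above. Their part in the Rab20 responses was not tested.

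Rab7 stood apart in CEBPB-/- cells. Its level there rose from 579 and 575 CPM to 6126 and 6186, against 601 and 595 rising to 2502 and 2345 in WT, and the response was larger by 1.40 ± 0.04 (adjusted p = 4.8e-34, edgeR). In the other lines Rab7 reached 2967 and 2983 CPM (JUNB-/-), 2687 and 2674 (IRF5-/-) and 2883 and 2846 (RELB-/-), and the responses differed from that of WT by 0.10 to 0.11. With zymosan, monocyte and macrophage markers summed to 1912 to 1918 CPM in CEBPB-/- cells against 1453 to 1480 in WT, and to 1013 to 1016 against 1128 to 1165 with DMSO. The TMM factors with zymosan were 0.660 and 0.662 in CEBPB-/- and 0.984 and 0.993 in WT, so the zymosan difference of these markers depends on the scaling. The part of these markers in the level of Rab7 was not tested.

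Rab32 rose more than in WT in all 4 lines. In CEBPB-/- cells it went from 364 and 361 CPM to 1406 and 1422, a difference in response of 1.24, and in JUNB-/- cells from 315 and 302 to 1015 and 1033, a difference of 1.01 ± 0.05. The difference was 0.81 in IRF5-/- and 0.48 in RELB-/- cells. Its relative Rab38 had no read in either DMSO library of CEBPB-/- or JUNB-/- cells and 83 and 78 counts (CEBPB-/-) or 103 and 126 counts (JUNB-/-) with zymosan. Against the floor of 3 counts over the group, Rab38 was at least 114-fold higher in CEBPB-/- cells and at least 106-fold higher in JUNB-/- cells. In set 2, Rab38 counts went from 3 and 5 to 49 and 35 in IRF5-/- and from 1 and 4 to 58 and 50 in RELB-/-, responses larger than in WT by 1.76 and 2.50. These calls were fragile: that of IRF5-/- was lost under DESeq2 (adjusted p = 0.054) and without the first or second IRF5-/- DMSO, first IRF5-/- zymosan, first WT DMSO or second WT zymosan library (lowest 1.30, adjusted p = 0.271, edgeR). That of RELB-/- was lost without its first DMSO library (adjusted p = 0.0949, edgeR) or the first WT DMSO library (2.04, adjusted p = 0.0853).

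Rab43 and Rab40c had a lower change with zymosan in both knockout lines of set 2 than in WT. Rab43, a Golgi Rab, had a difference in response of -1.40 in IRF5-/- and -0.63 in RELB-/- cells, and 75.4% of its exon length is shared with another gene on the same strand. The RELB-/- call of Rab43 was lost under DESeq2 (adjusted p = 0.0949) and without the first RELB-/- zymosan library (-0.42), the second WT DMSO library (-0.50) or the second WT zymosan library (-0.38, adjusted p = 0.245, edgeR). Rab40c differed by -0.99 and -0.89. Low-count members also passed: Rab13 in CEBPB-/- (-2.46, from 15 and 11 counts to 3 and 1, where WT had 6 to 9) and Rab19 in JUNB-/- (2.98, from 0 and 5 counts to 13 and 9). Without the first DMSO library of JUNB-/- the value of Rab19 was 1.83 (adjusted p = 0.0738, edgeR), and Rab13 lost its call without either of 2 CEBPB-/- libraries or either of 2 WT libraries.

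**Figure D2:**
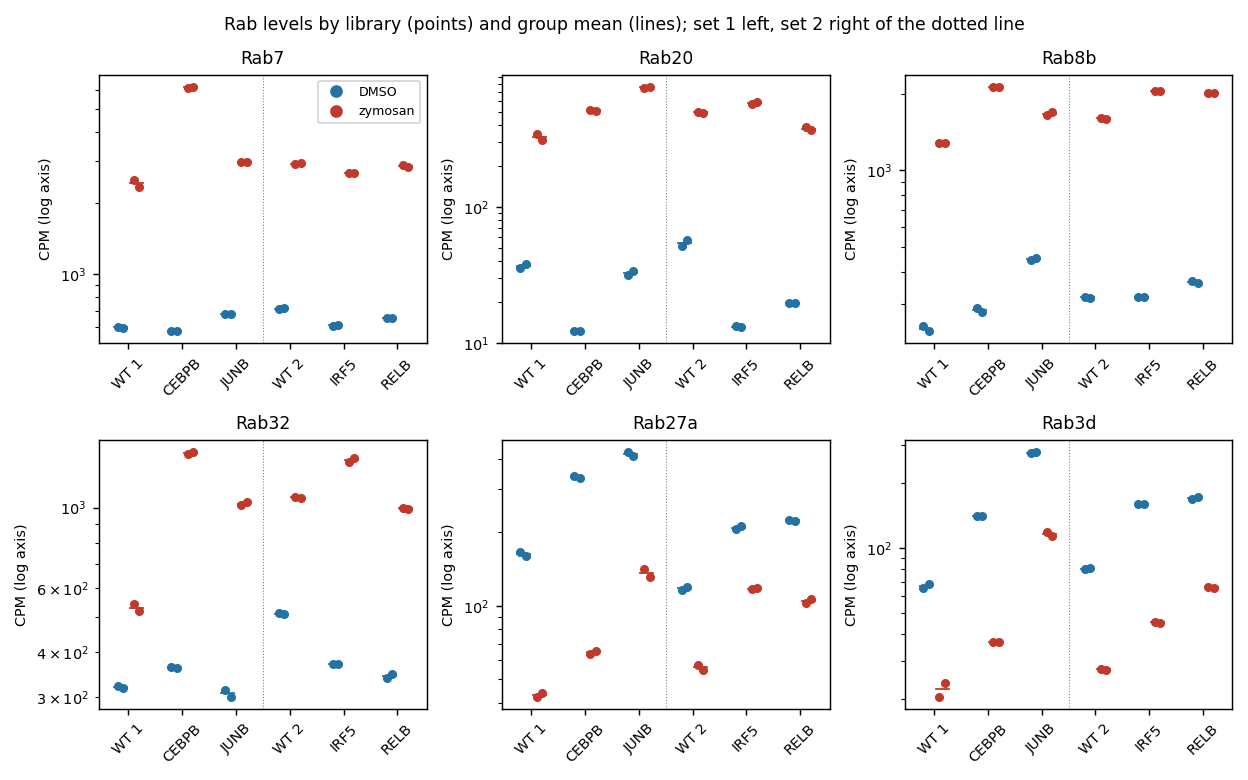
CPM on a log axis for leading members in every ER-Hoxb8 library of sets 1 and 2, 1 point per library and a line for the group mean, with DMSO in blue and zymosan in red. The zymosan points of Rab7 in CEBPB-/- cells, at 6126 and 6186 CPM, lie above those of the other lines, and the DMSO points of Rab20 lie lowest in CEBPB-/- and IRF5-/- cells.

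The third comparison asked how resting cells of each line differed from WT with DMSO. Rab27a, Rab3d and Rab37 of granule release were higher in 5 lines and lower in RUNX1-/- cells, and Rab20 and Rab34 were lower in all 6, under TMM and total-count scaling alike. The called members numbered 40 in CEBPB-/- (31 higher, 9 lower; 70.5% of all genes), 38 in JUNB-/- (31 and 7; 76.4%), 34 in IRF5-/- (25 and 9; 64.6%), 31 in RELB-/- (23 and 8; 59.4%), 35 in RUNX1-/- (9 and 26; 75.3%) and 30 in KLF6-/- (20 and 10; 66.2%). In that order, the higher and lower shares of all genes were 33.6% and 36.9%, 35.4% and 41.1%, and 35% and 29.6%. For the last lines they were 32.1% and 27.3%, 38.2% and 37.1%, and 31.2% and 35%. These shares also stand beside the TMM counts by role below. Median log2 differences of the tested members were 0.37, 0.58, 0.20, 0.23, -0.25 and 0.11 in that order, beside -0.05, -0.12, 0.04, 0.04, 0.01 and -0.04 over all genes tested. Under total-count scaling, which moved the medians of all genes by -0.35, -0.55, -0.11, -0.02, 0.36 and -0.14, the splits became 13 higher and 16 lower, 19 and 17, 21 and 13, 23 and 8, 23 and 14, and 12 and 18. RUNX1-/- and KLF6-/- were both compared with the WT libraries of set 2, which IRF5-/- and RELB-/- share.

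Rab20 with DMSO was below WT in each line under both scalings. Total-count scaling lowers the values in every line but RUNX1-/-, so only there could it have undone the difference. Its log2 difference was -1.59 ± 0.06 in CEBPB-/-, -0.17 ± 0.05 in JUNB-/-, -2.04 ± 0.05 in IRF5-/-, -1.46 ± 0.04 in RELB-/-, -3.12 ± 0.07 in RUNX1-/- and -0.86 ± 0.05 in KLF6-/-. In the later table the levels of Rab20 were 76.0 and 84.6 CPM in WT, 9.71 and 8.78 in RUNX1-/- and 42.9 and 45.7 in KLF6-/-, with no overlap. The small JUNB-/- difference lost its call without the first JUNB-/- DMSO library (-0.10, adjusted p = 0.168, edgeR) and without the second WT DMSO library (-0.10, adjusted p = 0.172).

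Markers of eosinophils, basophils and mast cells differed in the same direction. Their sum over 6 genes with DMSO was 1638 to 1642 CPM in WT, 515 to 536 in CEBPB-/- and 221 to 225 in JUNB-/- of set 1. In set 2 it was 3478 to 3545 in WT, 652 to 659 in IRF5-/- and 427 to 434 in RELB-/-, and among the later libraries 5148 to 5259 in WT, 768 to 785 in RUNX1-/- (Ms4a2 at 0) and 621 to 633 in KLF6-/-. JUNB-/- cells had the lowest sum of set 1 and the smallest Rab20 difference. Prg2 and Epx made up most of the sum in WT, and Siglecf went the other way in every line but JUNB-/-. In set 1 Siglecf was at 143 and 143 CPM in WT, 228 and 227 in CEBPB-/- and 89.9 and 92.0 in JUNB-/-. In set 2 it was at 101 and 104 in WT, 124 and 131 in IRF5-/- and 185 and 193 in RELB-/-. Among the later libraries it was at 150 and 154 CPM in WT, 283 and 285 in RUNX1-/- and 213 and 215 in KLF6-/-. In bulk RNA fewer cells of a type and less RNA per cell cannot be told apart, and the part of these cells in the Rab differences was not tested.

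Among the secretory members, Rab3d was at 65.1 and 68.5 CPM in WT of set 1, 141 and 141 in CEBPB-/- and 275 and 279 in JUNB-/-. In set 2 it was at 79.9 and 80.9 in WT, 160 and 160 in IRF5-/- and 169 and 173 in RELB-/-. The log2 differences of Rab3d were 1.08, 2.05, 0.99 and 1.09 in these lines, 0.71 in KLF6-/- and -1.03 in RUNX1-/-, so RUNX1-/- was the one line of 6 below WT.

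Rab27a took the same course, at 1.05, 1.37, 0.83, 0.92 and 1.00 in CEBPB-/-, JUNB-/-, IRF5-/-, RELB-/- and KLF6-/-, and -0.88 in RUNX1-/-. Its levels in the later table were 172 and 177 CPM in WT, 95.8 and 93.6 in RUNX1-/- and 348 and 352 in KLF6-/-. Rab37 differed by -1.45 in RUNX1-/-, at 16.2 and 14.2 CPM against 42.1 and 41.0, and by 0.70 to 1.45 in the other lines. Rab44 differed most in JUNB-/- cells, at 1.86.

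The sum of neutrophil markers moved with these members. Over 12 genes with DMSO it was 26832 to 28477 CPM in WT of set 1, 57489 to 58785 in CEBPB-/- and 78912 to 85985 in JUNB-/-. In set 2 it was 49108 to 51195 in WT, 64346 to 66472 in IRF5-/- and 55019 to 55395 in RELB-/-, and among the later libraries 72677 to 75959 in WT, 19998 to 20315 in RUNX1-/- and 89258 to 93678 in KLF6-/-. S100a8 and S100a9 made up most of each sum, and single markers of the list, these included, did not follow it everywhere. In RELB-/- cells S100a8 was at 13457 and 13333 CPM against 15933 and 14678 in WT. S100a9 was at 21217 and 20909 there against 21887 and 21186, while Mmp8, Ltf and Ngp were higher than in WT. In KLF6-/- cells Ly6g was at 9.29 and 10.6 CPM against 64.5 and 62.7 in WT, and Csf3r at 3034 and 3023 against 3414 and 3445. In CEBPB-/- cells Ly6g was at 20.8 and 19.3 CPM against 40.1 and 41.1. In IRF5-/- cells it was at 30.6 and 29.7 against 43.5 and 42.3, whereas it was above WT in JUNB-/- and RELB-/- cells. The part of these differences in the Rab levels was not tested. By role, 8 secretory and exocytic members were higher and 1 lower in CEBPB-/-, 7 and 0 in JUNB-/-, 4 and 2 in IRF5-/-, 5 and 1 in RELB-/-, 5 and 2 in KLF6-/-, and 0 and 7 in RUNX1-/-. Total-count scaling gave 4 and 3, 5 and 2, 4 and 3, 5 and 1, 4 and 2, and 2 and 5 in that order.

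Late endosome and lysosome members were divided. Higher and lower calls were 5 and 4 in CEBPB-/-, 4 and 5 in JUNB-/-, 3 and 5 in IRF5-/-, 2 and 5 in RELB-/-, 1 and 5 in RUNX1-/- and 3 and 4 in KLF6-/-, or 1 and 6, 3 and 7, 2 and 6, 2 and 5, 4 and 5, and 3 and 5 under total-count scaling. Rab32 was at 307 and 307 CPM in RUNX1-/- against 758 and 755 in WT, a log2 difference of -1.30, and differed by -0.46 in IRF5-/-, -0.57 in RELB-/- and -0.24 in KLF6-/-. Monocyte and macrophage markers with DMSO summed to 1013 to 1016 CPM in CEBPB-/- and 421 to 431 in JUNB-/- against 1128 to 1165 in WT, to 592 in IRF5-/- and 687 to 688 in RELB-/- against 958 to 969, and to 1806 to 1820 in RUNX1-/- and 1193 to 1194 in KLF6-/- against 1418 to 1437. Their part in these counts was not tested. Rab12 was lower in CEBPB-/- (-1.03), JUNB-/- (-0.78), IRF5-/- (-0.35) and KLF6-/- (-0.65), and the IRF5-/- call was lost without the first IRF5-/- library (-0.27, adjusted p = 0.0702, edgeR) or the first WT library (-0.28, adjusted p = 0.0575). Rab24 was higher by 0.83 in CEBPB-/- and 1.29 in JUNB-/-. Rab34, which helps to place lysosomes, was scarce, with 13 and 6 counts in WT of set 1, 1 and 0 in CEBPB-/- and 0 and 1 in JUNB-/-. Its differences ran from -1.65 (RELB-/-, adjusted p = 0.029, edgeR) to -3.45 (CEBPB-/-, adjusted p = 0.0036).

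Early and recycling endosome calls were 9 higher and 1 lower in CEBPB-/-, 10 and 1 in JUNB-/-, 9 and 1 in IRF5-/-, 8 and 1 in RELB-/-, 2 and 7 in RUNX1-/- and 7 and 0 in KLF6-/-. Under total-count scaling they were 5 and 2, 5 and 4, 7 and 2, 8 and 1, 8 and 2, and 3 and 4, so the balance turned in RUNX1-/- and KLF6-/-. In this group Rab31 was higher by 1.52 in JUNB-/- and 0.99 in RELB-/-, and Rab14 by 0.98 in KLF6-/-. Among Golgi members, Rab6a, which returns vesicles through the Golgi, was higher by 1.56 in JUNB-/- and 0.62 in IRF5-/- and lower in RUNX1-/- (-0.90). Its paralog Rab6b was higher by 2.57 in JUNB-/-, from about 2 CPM in WT (2.10 and 1.93) to 12.5 and 11.4. Rab28, a cilium-associated member, was higher by 1.46 in CEBPB-/- and 0.80 in RELB-/-.

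A few scarce members varied more between lines than the abundant ones, and are described here after their values were seen. Rab6b, with 21 and 23 counts in WT of set 2, had 144 and 129 in RELB-/-, 52 and 44 in IRF5-/-, 72 and 89 in RUNX1-/- and 1 and 0 in KLF6-/-. KLF6-/- was thus the one line with almost no Rab6b reads. Rab23, with 36 and 35 counts in WT of set 1, had 135 and 136 in JUNB-/- and 8 and 3 in CEBPB-/-. In set 2 and the later table, Rab23 went from 46 and 37 in WT to 97 and 111 in IRF5-/-, 7 and 7 in RUNX1-/- and 0 and 2 in KLF6-/-. All these differences passed the test (Rab23 in RELB-/- did not). Rab15, an endosomal Rab best known from neurons, had 42 and 40 counts in RUNX1-/- and at most 2 in any other DMSO library.

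**Figure D3:**
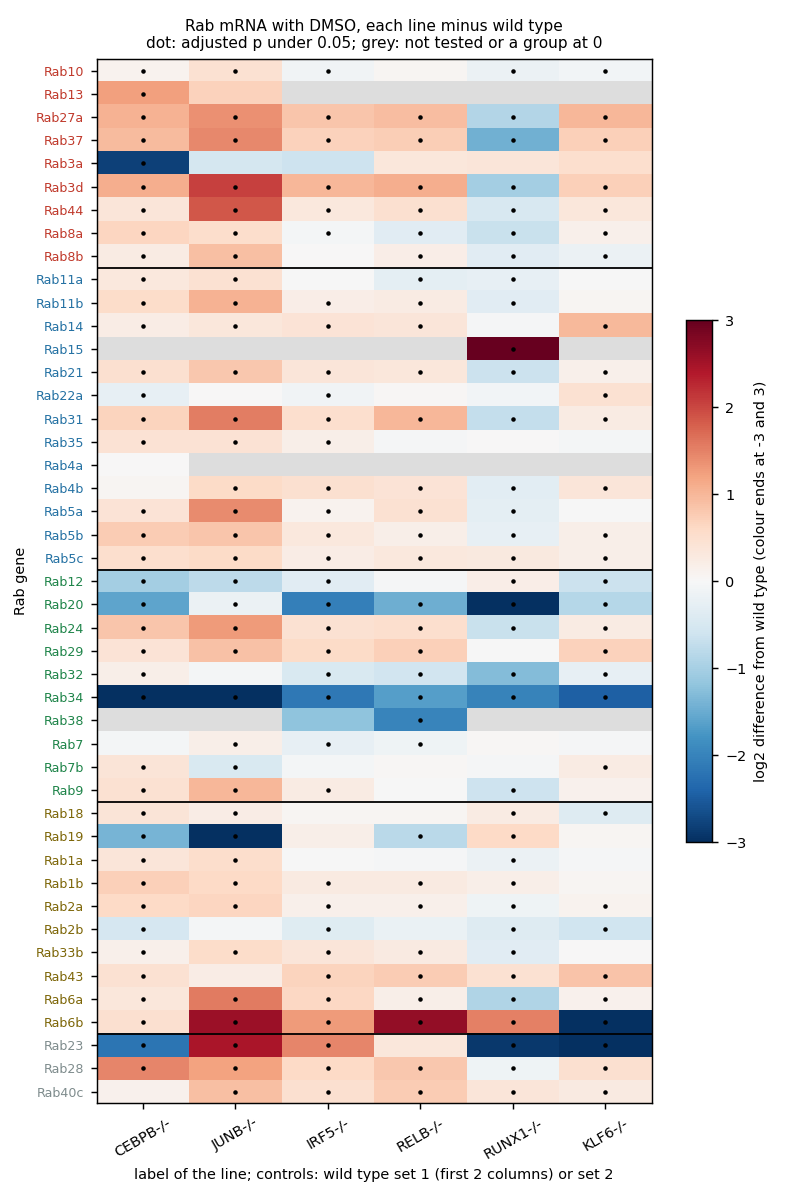
Log2 difference with DMSO of each line from its WT, members in rows grouped by role and the 6 lines in columns, with a dot for an adjusted p under 0.05 and grey for a member not tested or with a group at 0. The Rab20 row is below 0 in all 6 columns, from -0.17 to -3.12, and the Rab27a and Rab3d rows are above 0 except in RUNX1-/-.

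With zymosan, most members called under TMM were above WT: 34 higher and 2 lower in CEBPB-/- (67.9% of all genes called), 35 and 3 in JUNB-/- (76.5%), 24 and 8 in IRF5-/- (60.4%) and 23 and 8 in RELB-/- (56%). Of all genes, 35% were higher and 32.9% lower in CEBPB-/-, and 39.1% and 37.4% in JUNB-/-. The shares were 29.6% and 30.8% in IRF5-/-, and 27.1% and 28.9% in RELB-/-. Under total-count scaling the member counts were 16 and 12, 25 and 9, 18 and 11, and 23 and 10. RLE scaling gave 86.2% of the RELB-/- member calls as higher against 74.2%. Rab12 was lower in all 4 lines, at -0.82, -1.02, -1.05 and -0.66. Among members above a mean log2 CPM of 2, the largest increases in CEBPB-/- cells were those of Rab32 (1.41) and Rab7 (1.34), followed by Rab24 (1.33). In JUNB-/- cells they were Rab6b (2.72), itself low in WT, Rab3d (2.38), Rab31 (2.30) and Rab37 (2.25). Rab27a was higher by 1.07 in IRF5-/- and 0.90 in RELB-/- cells, and Rab31 by 1.13 in RELB-/-. The RELB-/- differences of Rab35 (-0.15), Rab10 (-0.12) and Rab32 (-0.10) lost their call under RLE scaling (-0.08, -0.06 and -0.03), under DESeq2 and without any 1 of the 4 libraries compared.

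Proteins that act on Rabs were counted from a list of prenylation factors, exchange factors, GTPase-activating proteins and effectors. Under TMM, with zymosan in WT of set 1, where 35.7% of all genes were higher and 39.9% lower, 3 of 8 tested prenylation factors rose and 5 fell, 11 of 32 exchange factors rose and 16 fell, 9 of 29 GTPase-activating proteins rose and 14 fell, and 10 of 30 effectors rose and 18 fell. In set 2, where the shares of all genes were 36.3% and 32.1%, the counts were 3 and 3, 10 and 14, 8 and 14, and 9 and 16. Total-count scaling, applied to these lists after the data were seen, gave 18.7% of all genes higher and 64% lower in set 1 and 13.3% and 68% in set 2, and turned the counts to 1 and 6, 5 and 23, 2 and 23, and 7 and 20 in set 1 and to 0 and 8, 5 and 24, 2 and 24, and 6 and 23 in set 2. The balance within these lists thus depended on the scaling, as it did over all genes. Rabgef1, an exchange factor of the Rab5 proteins, went from a mean of 41.6 to 763 CPM in set 1, a log2 change of 4.20, and changed by 3.80 in set 2. The Rab11 effector Rab11fip1 rose by 3.38 and 3.01, and Rilpl2, which binds Rab8 and Rab10 after phosphorylation, by 3.20 and 2.00. Dennd4a, an exchange factor of Rab10, rose by 2.90 in set 1, and Eea1, the Rab5 effector that tethers early endosomes, by 2.55 in set 2. Tbc1d14, a GTPase-activating-domain protein that binds Rab11, fell by 3.22 and 2.64, and Mon1a, part of the Rab7 exchange factor, fell by 2.49 in set 1.

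With DMSO, Tbc1d9 of the GTPase-activating protein family was lower in CEBPB-/- (-4.79), JUNB-/- (-5.55), IRF5-/- (-4.68) and KLF6-/- (-6.92) cells. Tbc1d4, which acts on Rab10, was lower in IRF5-/- (-1.63), RELB-/- (-1.93) and KLF6-/- (-2.40). The Rab11 effector Rab11fip4 was higher in CEBPB-/- (3.05), RELB-/- (1.57) and KLF6-/- (1.95) and lower in RUNX1-/- (-2.85). Chml, which escorts Rabs to their lipid modification, was lower in CEBPB-/- (-1.95) and JUNB-/- (-2.13).

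The tissue comparison asked how neutrophils of the pouch differed from those of blood and marrow. Rab7, Rab20 and Rab8b were among the most abundant members per kilobase (700, 408 and 104 CPM per kb, followed by Rab31 at 67.6 and Rab1a at 59.5), and their mean levels were higher in exudate and membrane than in marrow. No member passed edgeR's test in any of the 6 comparisons. The share of all genes called was 0.0162% for blood against marrow, 0% for membrane against blood, 0% for exudate against blood, 0.178% for exudate against marrow (0.0649% higher), 0.0162% for membrane against marrow and 0% for exudate against membrane. At an unadjusted p under 0.05 the members numbered 5, 10, 7, 8, 12 and 6 of 38, beside 11.7%, 7.81%, 19.1%, 23.1%, 13.3% and 8.22% of all genes, and DESeq2 called 0, 8, 2, 4, 8 and 7. The column names carry a tag, 100 or 300, whose meaning is not stated in the labels. All 3 marrow libraries have tag 100 and both membrane libraries tag 300, so tissue and tag cannot be told apart between them, while exudate (tag 100 in libraries 1 and 2) and blood (tag 100 in libraries 1 to 3) have both. A block by tag and number, added after the data were seen, gave 2 called members for membrane against blood, 2 for exudate against blood, 4 for exudate against marrow and 5 for membrane against marrow. Shares of all genes called under DESeq2 and under this block are not given here, so these counts cannot be set against all genes. Median differences of the tested members were 0.18, -0.02, 0.31, 0.36, 0.15 and 0.03, beside 0.38, -1.74, -0.35, 0.13, -0.75 and 0.86 over all genes.

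Rab7 was at 4791, 1758, 2762, 3215 and 1242 CPM in the 5 exudate libraries, 1579, 2455, 375, 352 and 541 in blood, 225, 417 and 349 in marrow, and 3789 and 3553 in membrane. Every exudate and membrane library lay above every marrow library, and 2 blood libraries lay among those of exudate. Within tag 100, exudate libraries 1 and 2 lay above all 3 marrow libraries, and the 2 high blood libraries carry that tag as well. The log2 difference of Rab7 from marrow was 3.06 ± 0.74 in exudate (adjusted p = 0.0771, edgeR) and 3.47 ± 0.83 in membrane (adjusted p = 0.164). From blood it was 1.38 ± 0.57 in exudate (adjusted p = 0.205) and 1.79 ± 0.69 in membrane (adjusted p = 0.485). Without exudate library 5, 1 member passed between exudate and marrow.

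Rab20 was at 976, 1107, 1485, 674 and 0 CPM in exudate, 314, 567, 90.8, 6.48 and 0.0482 in blood, 33.4, 23.1 and 115 in marrow, and 2328 and 795 in membrane. Of the 5 exudate libraries, 4 lay above all of blood and marrow and 1 had no read. Its difference from marrow was 3.89 ± 1.91 in exudate (adjusted p = 0.221, edgeR), and reads of an opposite-strand gene over 25.6% of its exon length cannot be told apart in these unstranded counts.

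Rab8b was at 371, 926, 1024, 994 and 56.6 CPM in exudate, 303, 612, 192, 329 and 230 in blood, 104, 228 and 276 in marrow, and 1113 and 651 in membrane. Exudate and marrow overlapped through exudate library 5, and both membrane libraries lay above all of blood and marrow. Rab1a was at 657 and 624 CPM in membrane and at 25.2 to 300 in every other library. Neither difference passed the test.

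Of the granule members, Rab3d was at 136, 39.0 and 50.8 CPM in marrow, between 0.856 and 76.9 in blood, between 0.157 and 88.2 in exudate, and had no read in either membrane library. It was at least 601-fold lower in membrane than in marrow by the floor of 3 counts over the group (adjusted p = 0.28, edgeR), a bound that falls to 359-fold without marrow library 1 (computed after the data were seen). Rab28 likewise had no read in membrane and was at 60.9, 94.6 and 83.2 CPM in marrow. By the same floor the difference was at least 636-fold, or 576-fold without marrow library 2, and it did not pass the test. These bounds cover counting error only and not the spread between libraries. Rab28 had 0, 0, 183, 0 and 3634 counts in exudate and 294, 0, 897, 1173 and 582 in blood. Rab27a ranged from 4.08 to 463 CPM within exudate alone, and Rab44 from 64.1 to 690. Rab12 was detected at 112 CPM in 1 membrane library and not in the other. Monocyte and macrophage markers summed to 606 to 913 CPM in exudate, 625 to 871 in membrane (C1qa and Cx3cr1 at 0), 111 to 713 in blood (C1qb at 0) and 3.91 to 156 in marrow (Adgre1, C1qa and Cx3cr1 at 0). Neutrophil markers summed to 287250 to 356370 CPM in marrow, 207980 to 317550 in blood, 108310 to 156010 in membrane and 85741 to 360590 in exudate, and erythroid markers to at most 1285 in marrow. The part of these cells in the levels was not tested. Eosinophil, basophil and mast cell markers summed to at most 6.22 CPM in any tissue library.

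**Figure D4:**
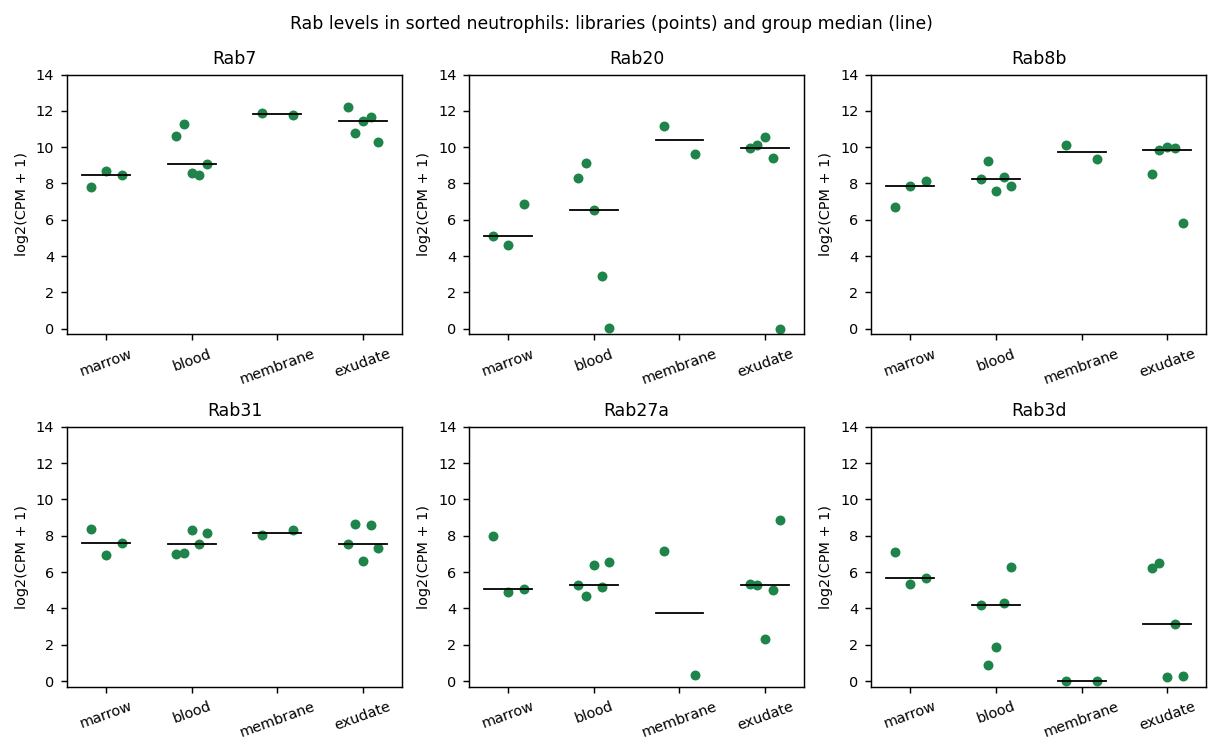
Level of 6 members as log2(CPM + 1) in each tissue RNA library, 1 point per library with a line for the group median (5 exudate, 5 blood, 3 bone marrow, 2 membrane). The Rab7 points of exudate and membrane, from 1242 to 4791 CPM, lie above those of marrow, from 225 to 417 CPM, while most members spread widely within a tissue.

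Open chromatin near the members was read from the authors' deposited tables, which merge 47164 sites and list those that differ between tissues with the -log10 of a p or adjusted p and no values per library. In the authors' deposited tables, 52 of 59 members (88.1%) had a merged site whose nearest gene start within 50000 bp was theirs. Of the 38 members in the tissue fit 37 had one, beside 68.0% of all genes in that fit. Sites that differed lay near 18 members, 17 of them among the 38 in the tissue fit, beside 23.6% of the 12330 genes there. For single comparisons in the authors' deposited tables, 10 members had such a site between exudate and blood, beside 12.2% of the 12330 genes in the tissue fit. The counts were 17 between exudate and marrow (19% of those genes) and 3 between blood and marrow (3.52%). They were 9 between membrane and blood (10.3%) and 16 between membrane and marrow (17.5%). The counts against marrow for exudate and membrane include Rab3a, which is not in the tissue fit. All other members counted are among the 38 of the fit. Of the 48 distinct sites in the authors' deposited tables, 34 were in an intron, 11 outside the gene and 3 overlapped an exon, and 4 lay within 1000 bp of the start. Sites were given to members by nearest gene start, and 96 of 111 listed rows carry the same gene in the authors' assignment. The only site of Rab11a and that of Rab2a are among the rows that do not. The lists give no test of whether members differ from other genes.

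By nearest gene start Rab20 had the most, 8 sites, all with more open chromatin in the pouch in the authors' deposited tables. Those at chr8:11430595-11431187 and chr8:11441835-11442387, 47819 and 36599 bp from its start, are not assigned to Rab20 by the authors. The 7 sites of Rab8b are all assigned to Rab8b by the authors. The strongest, at chr8:11463648-11464553 (GRCm38), lies in an intron 14610 bp from the gene start, and the authors' deposited tables give -log10 values of 38.4 for exudate against marrow, 30.5 for membrane against marrow, 18.6 for exudate against blood and 13.4 for membrane against blood. A site at chr8:11476685-11477255, 1740 bp into the gene, has 18.8 for exudate against marrow in the authors' deposited table. The window printed above for Rab20 lies outside these sites.

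Of the other 11 late endosome, phagosome and lysosome members, 4 had differential sites in the authors' deposited tables (Rab7, Rab32, Rab9 and Rab7b). Rab7 had 3 that increased, the strongest at chr6:88056751-88057285, 11748 bp upstream of the start, with 15.3 and 11.2 against marrow for exudate and membrane in the authors' deposited tables, and a weak decrease in an intron (2.34, membrane against marrow). Rab32 had 2 that increased in an intron. The stronger, at chr10:10555164-10555703, 2832 bp from the start, had 15.8 and 13.2 against marrow in the authors' deposited tables. The weaker, at chr10:10550084-10550605, reached 2.81 there (membrane against blood). Rab9, which returns receptors from late endosomes to the Golgi, had an intron site at chrX:166478437-166479315, 991 bp from the start, with 8.28 and 7.55 against marrow in the authors' deposited tables. Rab7b at chr1:131691265-131691886 had 8.38 and 8.51 there in the authors' deposited tables.

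Granule members went both ways. Rab3d had a site of less open chromatin in the pouch at chr9:21909360-21909899, overlapping an exon 8563 bp from the start, with 14.6 for exudate against marrow and 9.58 for exudate against blood in the authors' deposited tables. Rab3a had a decrease at chr8:70754321-70754881, centred 78 bp upstream of the start and covering the whole window printed above, with 7.62 and 5.88 for exudate and membrane against marrow in the authors' deposited tables. Rab27a had a weak increase in an intron at chr9:73054502-73055030 (3.77 for exudate against marrow in the authors' deposited table), and Rab37 had 2 weak increases in introns (up to 2.62). Rab8b was mixed, with increases against marrow of up to 3.98 and decreases against blood of up to 5.01 in the authors' deposited tables. Rab31 of the early endosome group had 5 intron sites that increased, the strongest at chr17:65737030-65738026 with 9.57 for exudate against marrow, and 1 that decreased (1.62), in the authors' deposited tables.

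**Figure D5:**
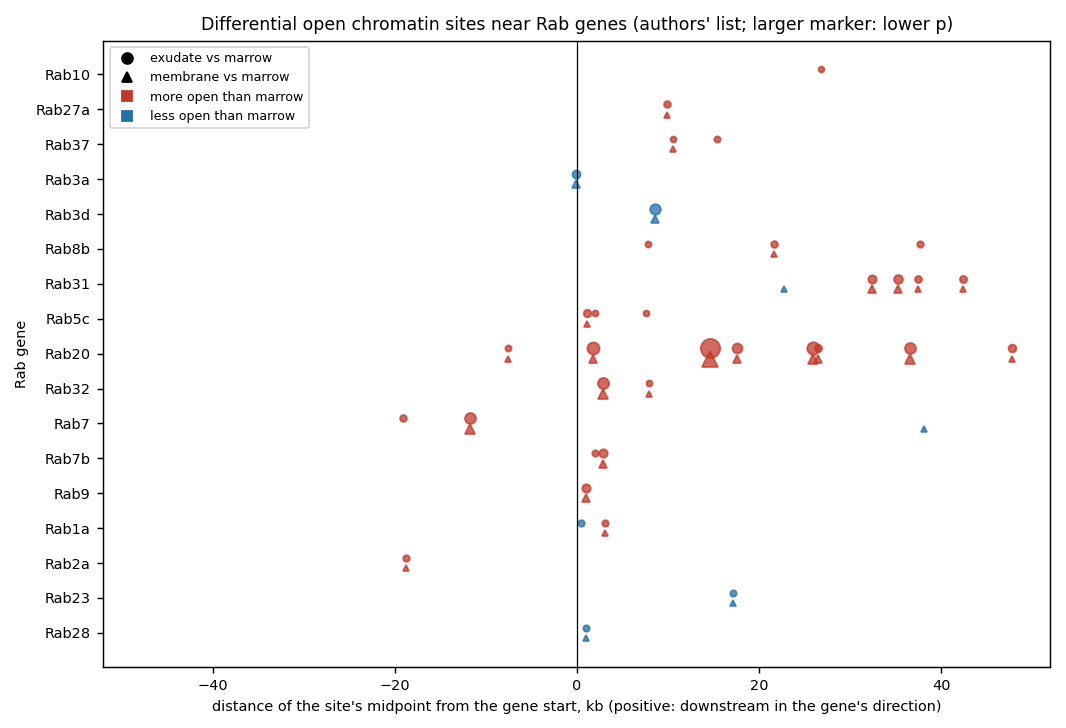
Differential open chromatin sites near members, plotted by the distance in kb of the site's middle from the gene start, for exudate (circles) and membrane (triangles) against bone marrow, red for more and blue for less open, with larger markers for a higher -log10 p in the authors' deposited lists. Rab20 carries the strongest increase, at 38.4, and the strongest decrease is that of Rab3d, at 14.6.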

How the data were processed

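The members and lists were chosen with earlier results of these data known. The authors deposited raw counts of read pairs per gene, made with featureCounts 1.5.0-p2 and 1.6.3 per the file headers, on GRCm38. The tissue libraries were counted without strand and the ER-Hoxb8 libraries as reverse stranded, per the file headers. STAR and DESeq2 (RNA) and cutadapt, Bowtie2, MACS2 and deepTools are among the tools named in the submitters' processing notes. The authors' deposited site lists give -log10 of a p or adjusted p per site and no library values. A score column deposited with the merged sites was read by no test. Exon length in bases, another value the authors deposited, was used only for levels per kilobase.

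Samples were grouped by their labels, and 18 count columns that matched no label were not read. Symbols were found for 50376 of 50600 gene IDs (99.6%). Counts were tested with edgeR 4.0.16 in R 4.3.3 (quasi-likelihood, TMM scaling, low-count filter, 1 fit per table), and p-values were adjusted over all genes tested, with a threshold of 0.05. The script was tested on simulated data. The total per library and 2 libraries a group limit precision. CPM uses TMM-scaled library sizes within a table, so CPM values of different tables are not on 1 scale. Exons overlap those of another gene over 75.4% of length for Rab43 and 65.0% for Rab4b on the same strand, and in the unstranded tissue counts also over 64.0% for Rab2b and 25.6% for Rab20. Such members are uncertain. 1 monocyte and macrophage marker is not reported here and was left out of the sums.

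Members named are the largest called, non-overlapping changes of each comparison above a mean log2 CPM of 2, the 5 highest per kilobase, those with a differential site and a list of 33 well-known members. Proteins that act on Rabs were named by size in the same way. Alternatives were DESeq2 1.42.0, RLE and total-count scaling, no filter, a replicate block, a 2-fold threshold and each library left out.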

Additional observations from a re-analysis of the deposited data

Results flagged for a closer look

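The response to zymosan differed from that of WT by edgeR's test of the interaction in 29 members in CEBPB-/-, 26 in JUNB-/-, 23 in IRF5-/- and 23 in RELB-/- cells, and the 4 largest differences of each line among the members named by size are given here. In CEBPB-/- cells these were Rab38 (6.47), Rab13 (-2.46), Rab20 (2.24) and Rab7 (1.40), in log2 units. In JUNB-/- cells they were Rab38 (6.42), Rab19 (2.98), Rab20 (1.39) and Rab32 (1.01). In IRF5-/- cells they were Rab20 (2.26), Rab38 (1.76), Rab43 (-1.40) and Rab40c (-0.99), and in RELB-/- cells Rab38 (2.50), Rab20 (1.07), Rab40c (-0.89) and Rab43 (-0.63). The 2 values of Rab38 in set 1 depend on the prior count, because the DMSO libraries of CEBPB-/- and JUNB-/- held no read of it.

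In the tissues, 1 library stood apart from the other 4 of its group in 18 of 72 groups tested (25%). A group was 1 member in the libraries of 1 tissue. The rule was Dixon's test, a gap to the nearest library of more than 0.71 of the range. Its chance rate of about 1 in 20 assumes normally distributed values. The CPM values were strongly skewed and the groups share the same libraries, so the 25% cannot be judged against that rate. In exudate, library 5 had 25.2 CPM of Rab1a, 534 of Rab1b, 463 of Rab27a, 278 of Rab28 and 366 of Rab29. Exudate library 4 had 1.51 CPM of Rab18, 0.535 of Rab33b, 9 of Rab36, 10.4 of Rab4b and 139 of Rab9. The other exudate values were 140 CPM of Rab19 and 94.0 of Rab37 in library 2, 0.549 of Rab23 in library 3 and 133 of Rab5a in library 1. In blood they were 5.03 CPM of Rab12 in library 4, 39.6 of Rab23 in library 3, 76.9 of Rab3d in library 5 and 80.2 of Rab9 in library 1.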

How the results depend on the processing

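Of the 201 called ER-Hoxb8 differences chosen for naming by their size, 7 of 200 lost their call under DESeq2, 4 under RLE scaling, 2 under total-count scaling and 3 with no filter, and so did 42 refits without 1 library, while 826 such refits kept the call. Smaller changes depended more on scaling: of all 669 calls of members over the 20 ER-Hoxb8 comparisons, 517 were the same under total-count scaling, 89 were not called and 63 were in the opposite direction. The 2-fold threshold left 13 members called in WT of set 1 with zymosan, 16 in CEBPB-/- and 18 in JUNB-/- with zymosan, 11 and 16 for these lines against WT with DMSO, 10 and 17 with zymosan, and 6 and 4 for the response. In that order, it left 36.6%, 43.8%, 39.7%, 24.9%, 35.4%, 27.7%, 38.9%, 11.2% and 12.6% of all genes. In set 2 the threshold left 18 members in WT, 17 in IRF5-/- and 18 in RELB-/- with zymosan, 4 and 5 against WT with DMSO, 4 and 5 with zymosan, and 3 and 2 for the response, and it left 8 in RUNX1-/- and 4 in KLF6-/-. The shares of all genes were 29.1%, 36.3%, 37.5%, 19.6%, 15.2%, 20.5%, 16.3%, 7.73%, 6.59%, 27.4% and 20.4%.

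Leaving out 1 library gave 35 to 37 members called in WT of set 1, 33 to 36 in CEBPB-/- and 35 to 39 in JUNB-/- with zymosan, and 34 to 37 in WT of set 2, 37 in IRF5-/- and 36 in RELB-/-. Against WT with DMSO it gave 33 to 37 (CEBPB-/-), 35 to 37 (JUNB-/-), 29 to 31 (IRF5-/-), 27 to 30 (RELB-/-), 30 to 34 (RUNX1-/-) and 27 to 30 (KLF6-/-). With zymosan it gave 35 to 36, 37 to 38, 29 to 32 and 27 to 28 in the first 4 lines, and for the response 26 to 28, 22 to 25, 19 to 24 and 19 to 23. A group reduced to 1 library was assumed to vary like the other groups.

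In the tissues, where edgeR called no member, DESeq2 called 8 between membrane and blood, 2 between exudate and blood, 4 between exudate and marrow, 8 between membrane and marrow and 7 between exudate and membrane. With no filter 2 passed between exudate and marrow and 2 between membrane and marrow, and with only the compared groups 5 passed in the latter. Without exudate library 5, 1 passed between exudate and marrow, and the other single libraries gave 0. Leaving out exudate library 5 and blood libraries 1 and 2 together, added after the data were seen, gave 1 in each comparison of exudate or membrane with blood or marrow. Shares of all genes called under these tissue settings are not given here, so the member counts cannot be set against all genes. Rab19 turned to -2.93 between membrane and blood without membrane library 1 and to -0.45 between exudate and blood without exudate library 2, and Rab12 turned to 0 between membrane and marrow and to 3.09 between exudate and membrane without membrane library 1. The other end of the range over left-out libraries was 9.50 for Rab19 between exudate and blood, and 13.7 and -10.6 for Rab12. The cause was not tested.

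Whether replicate numbers pair the samples is not stated in the labels. Correlations of same-numbered deviations ran from -0.04 to 0.04 in ER-Hoxb8 cells. In tissues they ran from -0.03 to 0.07 for libraries sharing tag and number and from -0.06 to 0.06 for those sharing the number only. Correlations this small do not exclude pairing, least of all in the tissues, where libraries of 1 group differed widely. A replicate block kept all 201 calls, gave 1 tissue member between exudate and marrow and 1 between membrane and marrow, and by the tags in the column names, added after the data were seen, gave 2, 2, 4 and 5 for membrane against blood, exudate against blood, exudate against marrow and membrane against marrow. The share of all genes called with a block is not given here. Members with a differential site numbered 11 within 10000 bp and 31 when any start counted, against 18. Counts near 0, as for Rab3a, Rab34 and Rab38, limit what depth can show.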
